A study of Homo sapiens with 12 samples.

Results

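The transcripts described here are those of 37 genes of the ATF4 program and of amino acid supply: 6 transcription factors, 8 enzymes of serine and one-carbon synthesis, 5 enzymes of proline and asparagine synthesis and their neighbours, 8 amino acid transporters and 10 stress effectors. They were listed by name for their known place in this program, and the rule sets no threshold on a measured value. The list was chosen with earlier results of these data known. Its counts and medians are therefore a description and no test of the list. All 37 had exactly 1 row in each deposited table, out of 60612 genes in the table of HCCLM3 and 32507 in that of LX2, and all 37 passed the filter on low counts in both lines. RNA was sequenced from 12 libraries of 2 wild-type human lines held in a tumor-on-a-chip device, HCCLM3, labelled as hepatoma cells, and LX2, labelled as hepatic stellate cells. The 4 groups of 3 libraries were HCCLM3 with LX2, HCCLM3 alone, LX2 with HCCLM3 and LX2 alone. Nothing in the labels ties a replicate to a culture of its own, and the spread behind each p-value is that between libraries and may be only technical. The sources used here give neither the time in culture nor the way the lines were parted before extraction. In bulk RNA, fewer cells of a type and less RNA per cell cannot be told apart.

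ATF4 is a transcription factor made from an mRNA whose translation increases when the initiation factor eIF2alpha is phosphorylated, for example by the kinase GCN2 when uncharged tRNA accumulates or by PERK when the endoplasmic reticulum is under load. It binds DNA as a dimer with C/EBP partners and raises genes that import amino acids, make serine, glycine, proline and asparagine, charge tRNA and restrain growth. Because this control is largely translational, the level of ATF4 mRNA is not a measure of ATF4 protein, which was not measured here. In liver, hepatocytes make much of the body's non-essential amino acids, and stellate cells draw on glycine and proline when they lay down collagen.

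The libraries held 65675929 to 77712308 counts in HCCLM3 and 61836616 to 69891842 in LX2. Levels are given as the authors' FPKM (by its name, fragments normalised to gene length and library size), in the order of replicates 1, 2 and 3. An FPKM was set to 0 in each library where the gene had no count. Changes are log2 fold changes of co-culture over the line alone. They come from the edgeR quasi-likelihood test on counts scaled by TMM, with p-values adjusted over all genes tested. Each standard error (SE) is the size of the log2 fold change divided by the square root of that test's F statistic. The scales differ in HCCLM3: over the 37 genes the log2 ratio of mean FPKM exceeded the TMM fold change by a median of 0.17, against 0.03 in LX2. Both lines held few transcripts of the cell types in their labels. The 5 hepatocyte markers ALB, APOA1, FGB, TTR and SERPINA1 summed to 36.5 to 37.3 FPKM in HCCLM3 with LX2, where TTR was at 0, against 2.798 to 3.07 FPKM in HCCLM3 alone; ALB and FGB were the 2 that rose. The 7 stellate markers summed to 165 to 196 FPKM in LX2 with HCCLM3, against 160.2 to 194 FPKM in LX2 alone. Nearly all of it was vimentin, and COL1A2 and SPARC were at 0 in LX2 alone. COL1A1 rose in LX2, to a mean of 7.56 FPKM with HCCLM3, against 2.72 FPKM alone. ACTA2 rose there to 2.81 FPKM, against 1.37 FPKM alone, and PDGFRB fell to 1.996 FPKM, against 2.38 FPKM alone. In HCCLM3 with LX2, 12 blood cell markers summed to 101 to 127 FPKM, against 0.469 to 0.723 FPKM in HCCLM3 alone. HBB and HBA1 led that list at 29.9 and 28.3 FPKM on average in co-culture, PTPRC stood at 0.0472 FPKM, and 11 of the 12 rose. The part of blood cell or hepatocyte transcripts in the results on HCCLM3 was not tested. In LX2 the same list summed to 0.299 to 1.80 FPKM with HCCLM3 and 0.509 to 0.888 FPKM alone.

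The element through which ATF4 and C/EBP partners act, TGATGNAA on either strand, was looked for in RefSeq promoter windows (250 bases before to 50 after each annotated start, GRCh38.p14). Windows existed for 29 of the 37 genes, and 9 of these 29 (31.0%) held a match, against 4.46% of all 27305 genes with a window. By window, 9 of 47 (19.1%) held one, against 3.62% of all 35116. The matches are shown because this element is how ATF4 is known to reach its targets. Each line below gives 30 bases of the strand of the gene, 5′ to 3′, with the 8 matched bases in capitals; in SLC1A4, SLC3A2 and CHAC1 the match is on the other strand and reads as its reverse complement.
ATF3: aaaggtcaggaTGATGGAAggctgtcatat
CEBPG: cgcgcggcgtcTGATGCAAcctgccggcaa
JDP2: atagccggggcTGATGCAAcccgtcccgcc
ASNS: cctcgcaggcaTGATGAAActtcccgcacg
SLC3A2: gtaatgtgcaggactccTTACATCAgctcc
SLC7A1: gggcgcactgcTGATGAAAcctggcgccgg
SLC1A4: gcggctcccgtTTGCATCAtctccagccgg
SLC1A5: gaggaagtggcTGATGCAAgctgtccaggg
CHAC1: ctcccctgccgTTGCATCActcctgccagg
These stretches lie at chr1:212565205-212565234 (ATF3, outside the annotated gene), chr19:33374060-33374089 (CEBPG, intron), chr14:75427995-75428024 (JDP2, intron), chr7:97872458-97872487 (ASNS, untranslated exon, minus strand), chr11:62881719-62881748 (SLC3A2, untranslated exon), chr13:29595663-29595692 (SLC7A1, untranslated exon, minus strand), chr2:64989381-64989410 (SLC1A4, intron), chr19:46784893-46784922 (SLC1A5, untranslated exon, minus strand) and chr15:40953251-40953280 (CHAC1, untranslated exon). Read in the direction of the element, the free base is C in 5 genes (TGATGCAA in CEBPG, JDP2, SLC1A4, SLC1A5 and CHAC1), A in ASNS and SLC7A1, G in ATF3 and T in SLC3A2. The first matched base lay from 209 bases before the start (position -209, CHAC1) to position 38 after it (SLC3A2). A match is a description of letters, not a measured binding site. Matches were present in genes that moved and in genes that did not: 7 of the 9 rose in LX2 and 2 of the 9 rose in HCCLM3, where SLC3A2 fell, while of the 28 genes without a match, or without a window, 22 rose in LX2 and 11 rose in HCCLM3.

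In LX2 grown with HCCLM3 nearly the whole set rose, and in HCCLM3 grown with LX2 a smaller set rose while the large neutral amino acid carrier fell. Of the 37 genes, 29 rose and 1 fell in LX2 (15.4% of the 19671 genes tested rose and 16.6% fell), and 13 rose and 4 fell in HCCLM3 (10.1% of 18045 rose and 11.6% fell). The 4 genes that fell in HCCLM3 were SLC7A5, SLC3A2, ALDH18A1 and LONP1, and the 1 that fell in LX2 was the glutamine carrier gene SLC38A2. The median log2 fold change of the 37 was 0.63 in LX2, against 0.015 for all genes tested, and 0.22 in HCCLM3, against 0.033 for all genes tested. Rises were called in both lines for 11 genes, opposite changes for SLC7A5, SLC3A2 and LONP1, and no change in either line for JDP2, CBS, GPT2 and SLC1A5. The FPKM of the 3 libraries of each group did not overlap for 30 genes higher and 2 lower in LX2 with HCCLM3 (26.1% and 22.0% of all genes tested there) and for 24 higher and 3 lower in HCCLM3 with LX2 (31.7% and 12.5%).

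**Figure D1:**
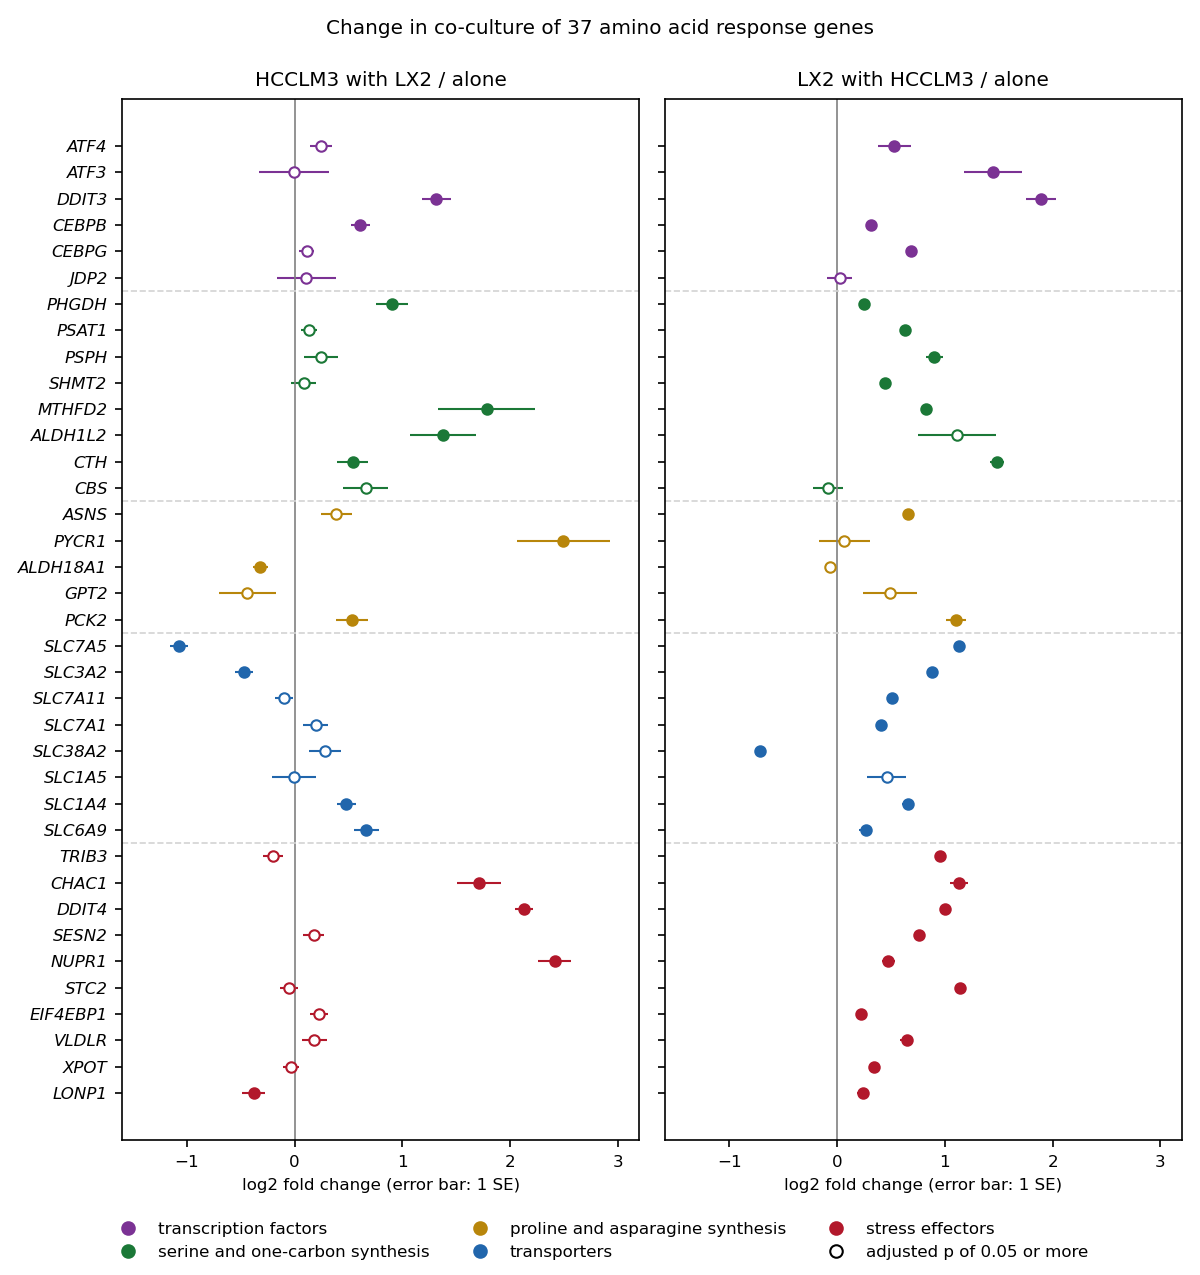
Log2 fold change of each of the 37 genes in HCCLM3 with LX2 over HCCLM3 alone (left) and in LX2 with HCCLM3 over LX2 alone (right), with bars of 1 SE, coloured by class; open circles did not reach an adjusted p under 0.05. In LX2 the filled circles lie to the right of 0 except SLC38A2, and in HCCLM3 they run from SLC7A5 at -1.08 to PYCR1 at 2.50.

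The split in HCCLM3 depends on how libraries are scaled. On library totals without TMM factors, 20 of the 37 genes rose and 2 (SLC7A5 and SLC3A2) fell there, while over all genes 2977 rose and 1039 fell, against 1829 and 2095 with TMM. That scaling put the median of all genes tested at 0.21 and that of the 37 genes at 0.40. Under it ATF3, SLC7A11, SLC1A5, STC2 and XPOT, below 0 in HCCLM3 with TMM, lay above 0, from 0.08 for SLC7A11 to 0.172 for ATF3. Without replicate 2 or replicate 3 of HCCLM3 with LX2, the count of the 37 called there was 11 and 10, against 17. In LX2, 29 to 31 of the 37 were called without any 1 library. The split there was 29 up and 1 down without TMM, against 3322 and 2911 over all genes.

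Among the transcription factors, 5 of 6 rose in LX2 (log2 fold changes 0.02 to 1.89) and 2 of 6, DDIT3 and CEBPB, rose in HCCLM3 (-0.005 to 1.32). DDIT3 (ENSG00000175197, chromosome 12, 57516588 to 57521737), which encodes the stress factor CHOP, had 32.6, 25.8 and 31.5 FPKM in HCCLM3 with LX2, against 9.53, 11.9 and 10.8 FPKM in HCCLM3 alone. In LX2 with HCCLM3 it had 32.9, 33.5 and 24.2 FPKM, against 8.11, 8.17 and 7.61 FPKM in LX2 alone. The groups were apart in both lines, with a log2 fold change of 1.32 (SE 0.13; adjusted p = 0.00163) in HCCLM3 and 1.89 (SE 0.14; adjusted p = 0.000149) in LX2. DDIT3 shares its place with MARS1 and MBD6 on the opposite strand, whose log2 fold changes were 0.14 and 0.43 in HCCLM3 and 0.55 and 0.30 in LX2, and no label or header tells if the counting used strand. ATF3 (ENSG00000162772, chromosome 1, 212565334 to 212620772), an early stress factor of the same family as ATF4, had 13.4, 14.1 and 8.05 FPKM in LX2 with HCCLM3, against 5.19, 3.13 and 4.42 FPKM in LX2 alone (log2 fold change 1.45, SE 0.27; edgeR adjusted p = 0.00795). In HCCLM3 with LX2 it had 1.23, 3.09 and 2.50 FPKM, against 1.75, 1.82 and 2.53 FPKM in HCCLM3 alone (log2 fold change -0.005, SE 0.33; edgeR adjusted p = 0.993). The groups were apart in LX2 and overlapped in HCCLM3, where the co-cultured libraries spread more widely than those grown alone.

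ATF4 itself (ENSG00000128272, chromosome 22, 39519672 to 39522683), given here as the factor at the head of the set, had 22.2, 23.1 and 33.1 FPKM in LX2 with HCCLM3, against 17.0, 17.9 and 18.4 FPKM in LX2 alone (log2 fold change 0.53, SE 0.15; edgeR adjusted p = 0.0411). In HCCLM3 with LX2 it had 15.1, 13.1 and 13.2 FPKM, against 10.98, 10.1 and 10.1 FPKM in HCCLM3 alone (log2 fold change 0.24, SE 0.10; edgeR adjusted p = 0.137). Replicate 3 of LX2 with HCCLM3 stood apart, high for ATF4 and low for DDIT3 and ATF3; without it ATF4 rose by 0.32 on the log2 scale in LX2 (edgeR adjusted p = 0.0123). The call of ATF4 in LX2 was lost without replicate 2 of LX2 with HCCLM3 or any 1 library of LX2 alone (log2 fold change 0.50 to 0.61; edgeR adjusted p 0.0524 to 0.117). CEBPG (ENSG00000153879, chromosome 19, 33373685 to 33382686), a C/EBP partner of ATF4, had 32.5, 31.6 and 31.9 FPKM in LX2 with HCCLM3, against 20.3, 19.3 and 19.0 FPKM in LX2 alone (log2 fold change 0.68, SE 0.04; edgeR adjusted p = 5.08e-05). Its HCCLM3 levels were 18.0, 20.2 and 19.4 FPKM with LX2, against 15.5, 16.2 and 15.7 FPKM alone (log2 fold change 0.11, SE 0.07; edgeR adjusted p = 0.299). CEBPB, another such partner, rose by 0.61 in HCCLM3 and 0.32 in LX2 on the log2 scale. JDP2, a repressor of the same family, had log2 fold changes of 0.11 and 0.02 and passed in neither line.

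Of the amino acid transporters, 6 of 8 rose and 1 fell in LX2, while 2 rose and 2 fell in HCCLM3. SLC7A5 (ENSG00000103257, chromosome 16, 87830023 to 87869507) encodes LAT1, which imports leucine and other large neutral amino acids. It had 57.6, 71.6 and 62.5 FPKM in HCCLM3 with LX2, against 119, 122.5 and 118.6 FPKM in HCCLM3 alone. In LX2 with HCCLM3 it had 790.0, 790.5 and 803.5 FPKM, against 363, 350.2 and 354.5 FPKM in LX2 alone. No library crossed between groups in either line: SLC7A5 fell by 1.08 on the log2 scale in HCCLM3 (SE 0.08; edgeR adjusted p = 0.000786) and rose by 1.13 in LX2 (SE 0.02; edgeR adjusted p = 4.30e-07). SLC3A2 (ENSG00000168003, chromosome 11, 62856102 to 62888875) encodes the heavy chain that carries LAT1 and xCT to the cell surface, and moved the same way as SLC7A5 in each line. Its levels were 47.6, 42.3 and 49.4 FPKM in HCCLM3 with LX2, against 54.5, 56.9 and 60.8 FPKM in HCCLM3 alone (log2 fold change -0.47, SE 0.08; edgeR adjusted p = 0.0107). In LX2 they were 162, 158 and 164 FPKM with HCCLM3, against 83.8, 85.0 and 88.7 FPKM alone (log2 fold change 0.88, SE 0.03; edgeR adjusted p = 5.35e-06). With limma on log2(FPKM + 1) and no filter the fall of SLC3A2 in HCCLM3 was not called.

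SLC7A11 (ENSG00000151012, chromosome 4, 138164097 to 138242349) encodes xCT, which exchanges cystine for glutamate. It had 26.1, 26.6 and 25.9 FPKM in LX2 with HCCLM3, against 17.7, 18.7 and 17.8 FPKM in LX2 alone (log2 fold change 0.51, SE 0.03; edgeR adjusted p = 8.12e-05). In HCCLM3, where it had 17.4, 19.0 and 18.1 FPKM with LX2 and 15.6, 19.2 and 17.2 FPKM alone, the groups overlapped (log2 fold change -0.09; edgeR adjusted p = 0.470). SLC38A2 (ENSG00000134294, chromosome 12, 46358188 to 46372773) encodes SNAT2, a sodium-coupled importer of glutamine, alanine and other small neutral amino acids, and was the only member to fall in LX2. It had 93.0, 95.4 and 92.2 FPKM in LX2 with HCCLM3, against 149.5, 154 and 147 FPKM in LX2 alone (log2 fold change -0.71, SE 0.03; edgeR adjusted p = 9.05e-06). Levels in HCCLM3 were 50.02, 53.2 and 51.6 FPKM with LX2, against 28.4, 43.8 and 41.7 FPKM alone (log2 fold change 0.28, SE 0.15; edgeR adjusted p = 0.223). The co-cultured libraries were lower in LX2, and in HCCLM3 they were higher without passing the test.

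The arginine and lysine carrier gene SLC7A1 rose in LX2 (log2 fold change 0.41) and not in HCCLM3 (0.19; edgeR adjusted p = 0.295). SLC1A4, an exchanger of serine, alanine and other small neutral amino acids, and SLC6A9, the glycine transporter GlyT1, rose in both lines. Their log2 fold changes were 0.48 and 0.67 in HCCLM3 and 0.66 and 0.26 in LX2. SLC6A9 overlaps CCDC24 on the other strand, whose log2 fold change was 0.30 in HCCLM3 and 2.21 in LX2. The call of SLC1A4 in HCCLM3 was lost without replicate 3 of HCCLM3 with LX2 (log2 fold change 0.46; edgeR adjusted p = 0.0532). SLC1A5, which encodes the glutamine exchanger ASCT2, varied widely within groups. It had 214, 153 and 217.5 FPKM in HCCLM3 with LX2, against 158, 224 and 142 FPKM in HCCLM3 alone. Its LX2 levels were 138, 101 and 99.4 FPKM with HCCLM3, against 69.8, 99.4 and 72.5 FPKM alone. Its groups overlapped in both lines (edgeR adjusted p = 0.988 in HCCLM3 and 0.104 in LX2).

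**Figure D2:**
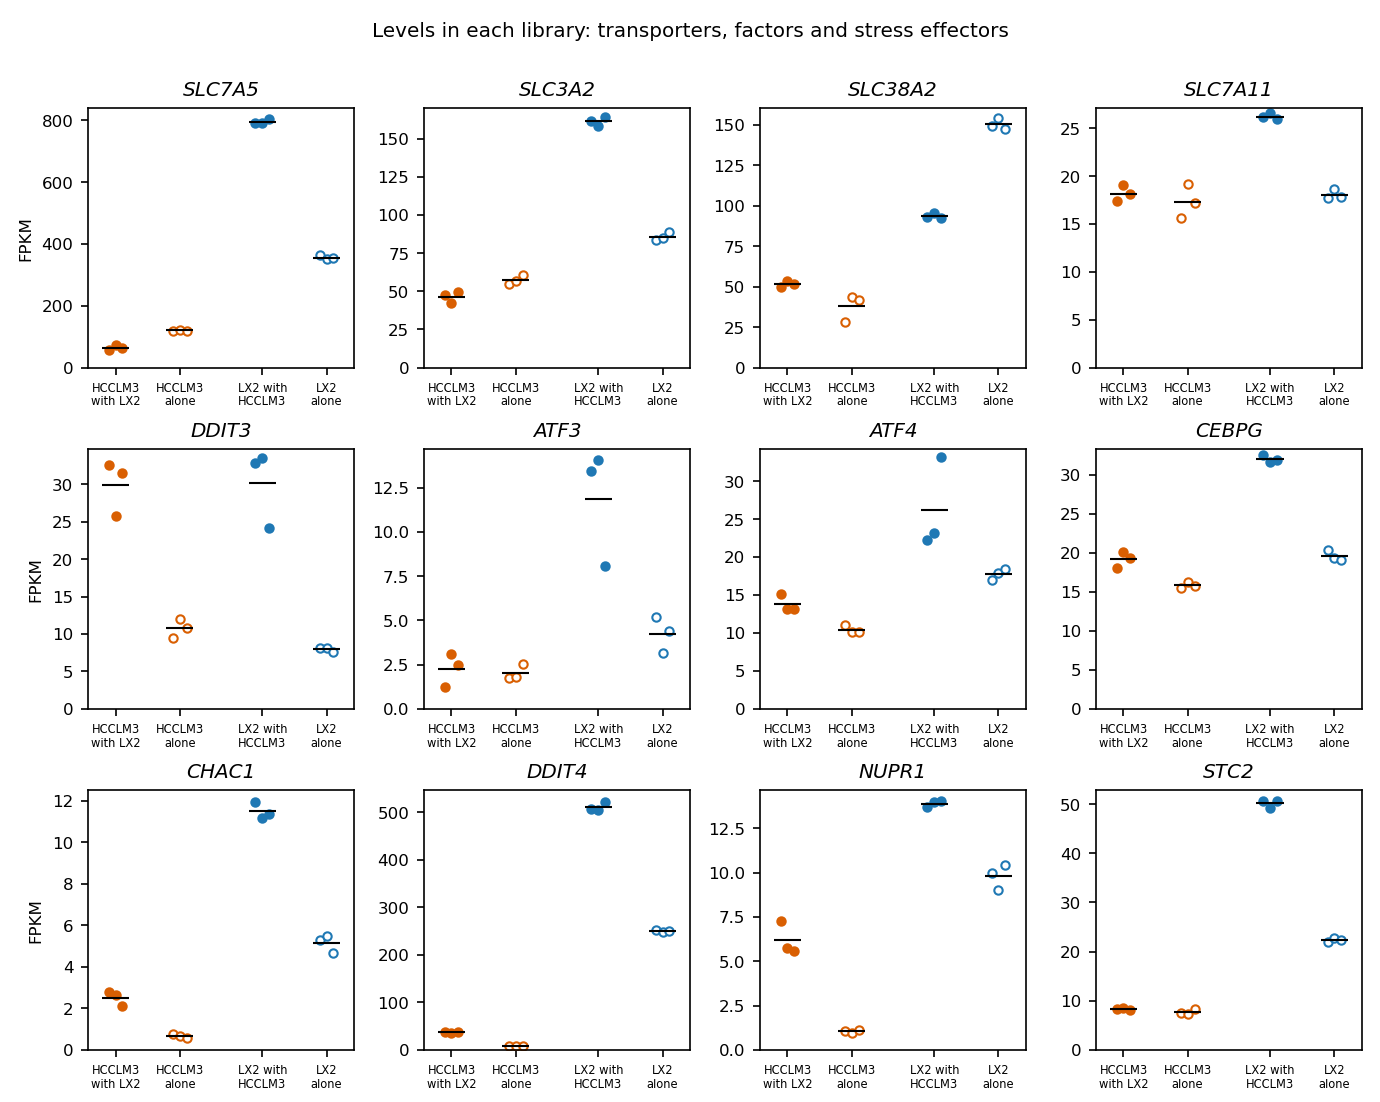
FPKM of 12 of the genes in each library (linear axis from 0), co-cultured groups filled and groups alone open, HCCLM3 in orange and LX2 in blue, with a bar at the mean of 3 libraries. SLC7A5 stands at 57.6 to 71.6 FPKM in HCCLM3 with LX2 and at 790.0 to 803.5 FPKM in LX2 with HCCLM3, on opposite sides of its level alone.

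Among the enzymes of serine and one-carbon synthesis, 6 of 8 rose in LX2 and 4 of 8 in HCCLM3, and none fell. The 3 steps that make serine from a glycolytic intermediate are catalysed by PHGDH, PSAT1 and PSPH, which all rose in LX2, by 0.25, 0.63 and 0.90 on the log2 scale. In HCCLM3 PHGDH rose, to 3.88, 3.57 and 3.36 FPKM with LX2, against 1.86, 1.39 and 1.90 FPKM alone (log2 fold change 0.90, SE 0.15; edgeR adjusted p = 0.00767). That rise equalled 3.69% of the level of PHGDH in LX2 alone. PSAT1 (ENSG00000135069, chromosome 9, 78297125 to 78330093) had 271, 269 and 275 FPKM in LX2 with HCCLM3, against 174, 172 and 169 FPKM in LX2 alone (SE 0.02; edgeR adjusted p = 8.49e-06). In HCCLM3 with LX2 it had 73.2, 67.3 and 70.5 FPKM, against 57.0, 58.8 and 55.7 FPKM in HCCLM3 alone (log2 fold change 0.13, SE 0.07; edgeR adjusted p = 0.230). PSPH had a log2 fold change of 0.24 in HCCLM3 (edgeR adjusted p = 0.326). PHGDH was thus the only one of the 3 called in both lines, from a level of 1.71 ± 0.28 FPKM in HCCLM3 alone and 51.3 ± 0.92 FPKM in LX2 alone (SD, n = 3), which come from separate tables.

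CTH (ENSG00000116761, chromosome 1, 70411218 to 70439851), the enzyme that releases cysteine from cystathionine, had 21.2, 21.9 and 21.1 FPKM in LX2 with HCCLM3, against 7.65, 6.90 and 7.86 FPKM in LX2 alone (log2 fold change 1.49, SE 0.06; edgeR adjusted p = 1.95e-05). In HCCLM3 it had 1.84, 2.17 and 2.10 FPKM with LX2, against 1.23, 1.23 and 1.28 FPKM alone (log2 fold change 0.54, SE 0.14; edgeR adjusted p = 0.0379). The groups were apart in both lines, and the call in HCCLM3 was lost without any 1 of its 6 libraries (edgeR adjusted p 0.0708 to 0.123). CBS, which makes cystathionine, passed in neither line (log2 fold change 0.66 and edgeR adjusted p = 0.0663 in HCCLM3, -0.09 and 0.699 in LX2), and its counts are uncertain because the near-identical gene CBSL can share its reads.

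MTHFD2, a mitochondrial folate enzyme, had the widest gap in level between the lines of the 37 genes, across separate tables. MTHFD2 (ENSG00000065911, chromosome 2, 74198610 to 74215298) had 64.8, 67.9 and 68.6 FPKM in LX2 with HCCLM3, against 36.2, 37.9 and 37.5 FPKM in LX2 alone (log2 fold change 0.82, SE 0.03; edgeR adjusted p = 1.52e-05). In HCCLM3 it was close to absent, at 0.162, 0.219 and 0.336 FPKM (63, 88 and 130 counts) with LX2, against 0.0336, 0.0661 and 0.0863 FPKM (16, 29 and 34 counts) alone. The rise in HCCLM3 was called (log2 fold change 1.78, SE 0.45; edgeR adjusted p = 0.0328). It equalled 0.476% of the level of MTHFD2 in LX2 alone. Over the 41 genes with at least 20 FPKM in LX2 alone and under 0.1 FPKM in HCCLM3 alone, MTHFD2 among them, the rise in HCCLM3 with LX2 had a median of 0.143% of the LX2 level, with 10th and 90th percentiles of 0.0166% and 0.493%. The part of LX2 transcripts in the rise of MTHFD2 was not tested. The call was also lost without replicate 1 or 2 of HCCLM3 alone or replicate 2 or 3 of HCCLM3 with LX2 (log2 fold change 1.46 to 1.84; edgeR adjusted p 0.0736 to 0.117). SHMT2, which splits serine into glycine and a one-carbon unit, rose in LX2 (log2 fold change 0.44) and not in HCCLM3 (0.08; edgeR adjusted p = 0.652). It overlaps NDUFA4L2 on the other strand, whose log2 fold change was 4.92 in HCCLM3 and 0.79 in LX2.

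ALDH1L2, which oxidises the mitochondrial one-carbon unit, was low in both lines. It had 0.144, 0.254 and 0.218 FPKM (109, 198 and 168 counts) in HCCLM3 with LX2, against 0.0510, 0.0811 and 0.0796 FPKM (46, 70 and 62 counts) alone (log2 fold change 1.37, SE 0.31; edgeR adjusted p = 0.0223). That call was lost without replicate 1 or 3 of HCCLM3 alone or replicate 2 or 3 of HCCLM3 with LX2 (log2 fold change 1.20 to 1.45; edgeR adjusted p 0.0519 to 0.0768). In LX2 it had 0.143, 0.205 and 0.106 FPKM with HCCLM3, against 0.0427, 0.0704 and 0.0903 FPKM alone (log2 fold change 1.11, SE 0.36; edgeR adjusted p = 0.0601). The co-cultured libraries were higher in both lines, at levels far below those of the other enzymes except MTHFD2 and PYCR1 in HCCLM3. ALDH1L2 overlaps C12orf45 on the other strand, which averaged 1432 counts in HCCLM3 (log2 fold change -0.51) against 108.8 for ALDH1L2, so its counts are uncertain.

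Of the enzymes of proline and asparagine synthesis and their neighbours, PCK2, a neighbour, rose in both lines. ASNS rose in LX2 and PYCR1 in HCCLM3, and ALDH18A1 fell in HCCLM3. PYCR1 (ENSG00000183010, chromosome 17, 81932384 to 81941079), which makes proline in its last step, had 0.425, 0.647 and 0.373 FPKM (97, 154 and 88 counts) in HCCLM3 with LX2, against 0.111, 0.0659 and 0.0451 FPKM (30, 18 and 11 counts) in HCCLM3 alone. In LX2 with HCCLM3 it had 16.2, 25.5 and 21.2 FPKM, against 21.6, 14.0 and 23.3 FPKM in LX2 alone. Its groups were apart in HCCLM3 (log2 fold change 2.50, SE 0.43; edgeR adjusted p = 0.00973) and overlapped in LX2 (0.07, SE 0.23; edgeR adjusted p = 0.862). The rise in HCCLM3 equalled 2.08% of the level of PYCR1 in LX2 alone, above the 90th percentile of 0.493% given for the 41 genes of LX2, and the part of LX2 transcripts in it was not tested. For LX2 the same measure over 56 genes of HCCLM3 had a median of 0.577% and a 90th percentile of 1.16%. The rise of LONP1, the smallest against the partner's level among the members that rose in LX2, was 27.4% of its level in HCCLM3 alone.

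PCK2 (ENSG00000100889, chromosome 14, 24094053 to 24104125), the mitochondrial enzyme that makes phosphoenolpyruvate, had 14.2, 16.2 and 14.0 FPKM in LX2 with HCCLM3, against 6.70, 6.13 and 7.43 FPKM in LX2 alone (log2 fold change 1.10, SE 0.09; edgeR adjusted p = 0.000290). PCK2 levels in HCCLM3 were 5.44, 6.79 and 6.70 FPKM with LX2, against 4.32, 3.26 and 4.06 FPKM alone (log2 fold change 0.53, SE 0.15; edgeR adjusted p = 0.0431). The groups were apart in both lines, and the call in HCCLM3 held only without replicate 1 of HCCLM3 alone when single libraries were left out (edgeR adjusted p 0.0553 to 0.134 without each of the others). ASNS, the asparagine synthetase and a classical ATF4 target, had 30.2, 28.6 and 31.4 FPKM in LX2 with HCCLM3, against 19.2, 18.7 and 18.1 FPKM alone (log2 fold change 0.66, SE 0.05; edgeR adjusted p = 0.000130). In HCCLM3 it had 16.1, 12.2 and 13.8 FPKM with LX2, against 10.8, 8.73 and 9.08 FPKM alone, apart but short of the threshold (log2 fold change 0.39, SE 0.14; edgeR adjusted p = 0.101). ALDH18A1, which opens proline synthesis from glutamate, fell by 0.32 in HCCLM3 (edgeR adjusted p = 0.0192) and had a log2 fold change of -0.07 in LX2 (edgeR adjusted p = 0.0774). The fall was not called on library totals without TMM, nor without replicate 1 of HCCLM3 alone or any 1 library of HCCLM3 with LX2 (log2 fold change -0.34 to -0.31; edgeR adjusted p 0.0537 to 0.0676). GPT2, the mitochondrial alanine aminotransferase, passed in neither line, with groups that overlapped in both (log2 fold change -0.44 in HCCLM3 and 0.49 in LX2).

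**Figure D3:**
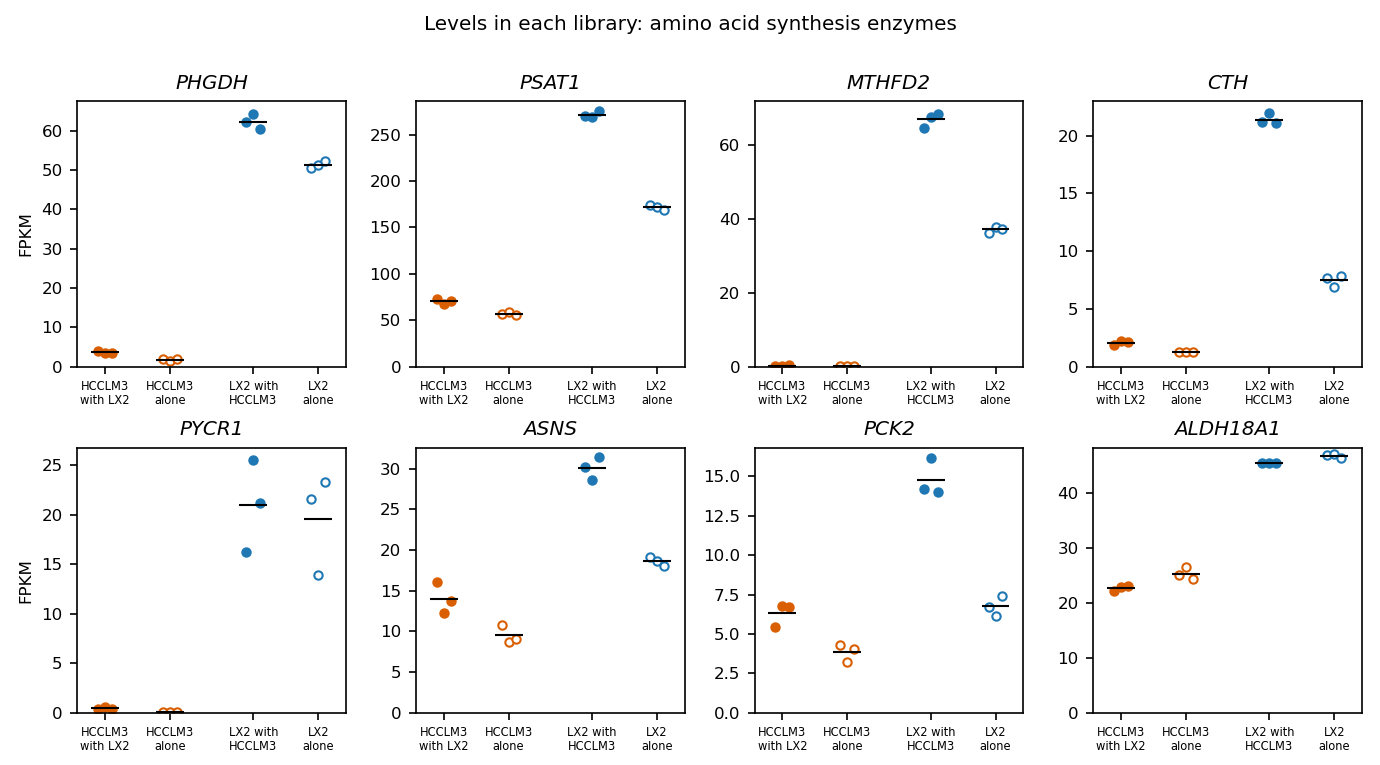
FPKM of 8 synthesis enzymes in each library (linear axis from 0), co-cultured groups filled and groups alone open, HCCLM3 in orange and LX2 in blue, with a bar at the mean of 3 libraries. MTHFD2 and PYCR1 lie at the bottom of the axis in HCCLM3, at up to 0.336 and 0.647 FPKM, while PYCR1 lies at 14.0 to 25.5 FPKM and MTHFD2 at 36.2 to 68.6 FPKM in the LX2 libraries.

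All 10 stress effectors rose in LX2 (log2 fold changes 0.22 to 1.14). In HCCLM3 3 rose, each by more than 1 on the log2 scale (CHAC1, DDIT4 and NUPR1), and LONP1 fell. DDIT4 (ENSG00000168209, chromosome 10, 72273924 to 72276036) encodes REDD1, an inhibitor of the growth kinase complex mTORC1. It had 38.0, 34.7 and 37.6 FPKM in HCCLM3 with LX2, against 7.28, 7.53 and 7.71 FPKM in HCCLM3 alone (log2 fold change 2.13, SE 0.08; edgeR adjusted p = 0.000131). In LX2 with HCCLM3 it had 506.5, 504.5 and 522 FPKM, against 252, 249.3 and 250.8 FPKM in LX2 alone (log2 fold change 0.998, SE 0.02; edgeR adjusted p = 1.09e-06). NUPR1 (ENSG00000176046, chromosome 16, 28532708 to 28538974), a small nuclear protein induced by stress, had 7.29, 5.77 and 5.59 FPKM in HCCLM3 with LX2, against 1.07, 0.940 and 1.10 FPKM alone (log2 fold change 2.41, SE 0.15; edgeR adjusted p = 0.000496). In LX2 NUPR1 had 13.7, 14.0 and 14.0 FPKM with HCCLM3, against 9.997, 8.998 and 10.4 FPKM alone (log2 fold change 0.47, SE 0.06; edgeR adjusted p = 0.00160). Both genes were higher in every co-cultured library of both lines. DDIT4 is also known as a gene raised by low oxygen, and oxygen was not measured here.

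CHAC1 (ENSG00000128965, chromosome 15, 40952962 to 40956512) encodes an enzyme that degrades glutathione. It had 2.798, 2.63 and 2.12 FPKM in HCCLM3 with LX2, against 0.784, 0.659 and 0.581 FPKM alone (log2 fold change 1.71, SE 0.21; edgeR adjusted p = 0.00278). In LX2 it had 11.96, 11.2 and 11.4 FPKM with HCCLM3, against 5.27, 5.48 and 4.68 FPKM alone (log2 fold change 1.13, SE 0.08; edgeR adjusted p = 0.000145). Its groups were apart in both lines.

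STC2 (ENSG00000113739, chromosome 5, 173314713 to 173329503), a secreted glycoprotein induced by unfolded proteins, had 50.6, 49.2 and 50.7 FPKM in LX2 with HCCLM3, against 22.0, 22.8 and 22.3 FPKM in LX2 alone (log2 fold change 1.14, SE 0.03; edgeR adjusted p = 2.02e-06). In HCCLM3 it had 8.30, 8.55 and 8.22 FPKM with LX2 and 7.56, 7.24 and 8.39 FPKM alone, which overlapped (log2 fold change -0.05; edgeR adjusted p = 0.686). TRIB3 (ENSG00000101255, chromosome 20, 362835 to 397559), a pseudokinase that restrains ATF4 activity, had 42.7, 40.5 and 41.8 FPKM in LX2 with HCCLM3, against 20.2, 22.4 and 20.5 FPKM alone (log2 fold change 0.96, SE 0.05; edgeR adjusted p = 3.86e-05). TRIB3 levels in HCCLM3 were 47.4, 45.2 and 43.4 FPKM with LX2 and 51.1, 45.0 and 43.0 FPKM alone (log2 fold change -0.20, SE 0.10; edgeR adjusted p = 0.187). For both genes the groups were apart in LX2 and overlapped in HCCLM3.

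SESN2 (ENSG00000130766, chromosome 1, 28259518 to 28282491), which encodes a leucine sensor that restrains mTORC1, had 15.9, 16.1 and 15.3 FPKM in LX2 with HCCLM3, against 9.37, 8.90 and 9.17 FPKM alone (log2 fold change 0.76, SE 0.05; edgeR adjusted p = 7.56e-05). In HCCLM3 it had 7.03, 8.41 and 7.36 FPKM with LX2, against 5.98, 6.25 and 5.75 FPKM alone (log2 fold change 0.18, SE 0.10; edgeR adjusted p = 0.247). XPOT (ENSG00000184575, chromosome 12, 64404392 to 64451125), which exports tRNA from the nucleus, had 56.2, 55.5 and 54.4 FPKM in LX2 with HCCLM3, against 42.9, 43.2 and 42.8 FPKM alone (log2 fold change 0.34, SE 0.02; edgeR adjusted p = 0.000111). In HCCLM3, where XPOT had 31.2, 32.1 and 33.0 FPKM with LX2 and 26.8, 31.7 and 29.5 FPKM alone, it did not pass (log2 fold change -0.03; edgeR adjusted p = 0.780). LX2 showed higher levels of both genes in every co-cultured library.

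LONP1 (ENSG00000196365, chromosome 19, 5691834 to 5720572), a protease of the mitochondrial matrix, moved in opposite directions in the lines. It had 24.6, 22.2 and 26.4 FPKM in HCCLM3 with LX2, against 29.4, 25.5 and 29.99 FPKM alone (log2 fold change -0.38, SE 0.10; edgeR adjusted p = 0.0405). In LX2 it had 44.6, 45.1 and 48.1 FPKM with HCCLM3, against 39.1, 35.7 and 39.7 FPKM alone (log2 fold change 0.24, SE 0.05; edgeR adjusted p = 0.0148). The FPKM overlapped in HCCLM3, and the fall there was not called on library totals without TMM, nor without 5 of its 6 libraries taken out singly (all but replicate 2 of HCCLM3 alone; edgeR adjusted p 0.0685 to 0.113). LONP1 overlaps RPL36 on the other strand, whose log2 fold change was 0.12 in HCCLM3 and 0.18 in LX2. EIF4EBP1, the translation repressor 4E-BP1, and VLDLR, a lipoprotein receptor, had log2 fold changes of 0.22 and 0.64 in LX2, where both were called, and of 0.22 and 0.18 in HCCLM3, where neither was (edgeR adjusted p = 0.0975 and 0.317).

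Set side by side, the changes of the 37 genes in the lines showed little relation, as a description (Pearson correlation 0.084 and Spearman correlation 0.038 over 37 genes, against 0.050 and 0.117 over 16155 genes tested in both lines; genes are not independent replicates). The difference itself, the change in HCCLM3 minus the change in LX2, was tested over all 12 libraries. It was called for 22 of the 37 genes, 6 higher and 16 lower in HCCLM3 (9.39% and 11.3% of 21959 genes tested). Among the calls with an adjusted p under 0.01, the lowest in HCCLM3 were SLC7A5 (-2.24, SE 0.09; edgeR adjusted p = 1.01e-07) and its heavy chain SLC3A2 (-1.38, SE 0.09; edgeR adjusted p = 3.34e-06), followed by STC2 (-1.22), TRIB3 (-1.19), CTH (-0.98), LONP1 (-0.65), SLC7A11 (-0.63), SESN2 (-0.61), CEBPG (-0.60), PSAT1 (-0.53) and XPOT (-0.40). Higher in HCCLM3 at that level were PYCR1 (2.39, SE 0.45; edgeR adjusted p = 0.00351), NUPR1 (1.91, SE 0.16; edgeR adjusted p = 1.83e-05), DDIT4 (1.10, SE 0.07; edgeR adjusted p = 2.98e-06) and SLC38A2 (0.96, SE 0.16; edgeR adjusted p = 0.00176). The difference of PYCR1, which rests on 11 to 154 counts per library in HCCLM3, was not called with limma on log2(FPKM + 1), with or without the filter. No difference was called for ATF4 (-0.32, SE 0.20; edgeR adjusted p = 0.301), DDIT3 (-0.61, SE 0.20; edgeR adjusted p = 0.0550), ASNS (-0.30, SE 0.16; edgeR adjusted p = 0.235) or CHAC1 (0.55, SE 0.21; edgeR adjusted p = 0.0946). On library totals without TMM, 10 of the 37 differences were higher and 10 lower in HCCLM3, against 2989 and 1588 of all 21959 genes tested.

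**Figure D4:**
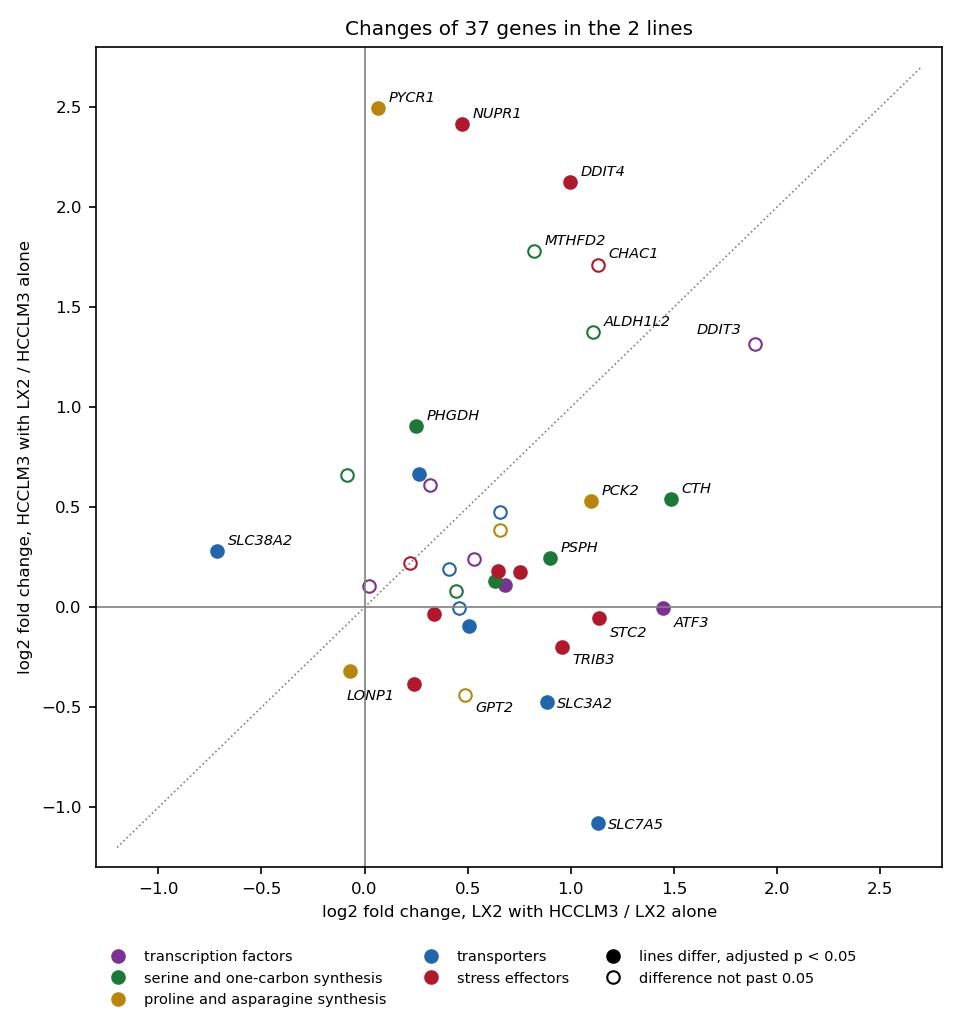
Log2 fold change in LX2 with HCCLM3 over LX2 alone (horizontal) against that in HCCLM3 with LX2 over HCCLM3 alone (vertical) for the 37 genes, coloured by class; filled points differ between the lines at an adjusted p under 0.05, and the dotted line marks equal change. SLC7A5 and SLC3A2 lie in the lower right, and NUPR1, DDIT4 and PYCR1 above the line.

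Genes around the program were counted in 8 further lists, named for their function and also chosen with earlier results of these data known. They are to be read against the 15.4% of all genes that rose and 16.6% that fell in LX2, and the 10.1% and 11.6% in HCCLM3. The cytosolic aminoacyl-tRNA synthetases, which charge tRNA and of which several are ATF4 targets, split between the lines: 14 of 20 rose and 0 fell in LX2, while 1 rose and 10 fell in HCCLM3 (median log2 fold change 0.35 in LX2 and -0.26 in HCCLM3). By p, GARS1 (35.3 ± 0.12 FPKM with HCCLM3 and 21.5 ± 0.36 FPKM alone; SD, n = 3), CARS1 and NARS1 led in LX2, with log2 fold changes of 0.69, 0.69 and 0.48, and RARS1 (20.3 ± 0.40 FPKM with LX2 and 36.2 ± 0.995 FPKM alone), FARSB and VARS1 led in HCCLM3, with -0.9996, -0.78 and -0.64. The difference between the lines was called for 19 of the 20, all lower in HCCLM3, against 11.3% of all 21959 genes tested. On library totals without TMM the counts were 15 up and 0 down in LX2 and 3 up and 7 down in HCCLM3. That scaling called 16 differences, all lower in HCCLM3. Over all genes it called 3322 up and 2911 down of 19671 in LX2 and 2977 up and 1039 down of 18045 in HCCLM3. Its differences over 21959 genes were 2989 higher and 1588 lower in HCCLM3. Of the 17 mitochondrial synthetases, 3 rose and 3 fell in LX2 and 0 rose and 4 fell in HCCLM3. With TMM the difference was called for 5 of them, all lower in HCCLM3, against 11.3% of all genes tested. On library totals without TMM it was called for 3 lower and 1 higher in HCCLM3. MARS2 (-0.61), AARS2 (-0.41) and CARS2 (0.29) led in LX2, and IARS2 (-0.41), RARS2 (-0.34) and CARS2 (-0.47) in HCCLM3.

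Other genes linked to ATF4 rose in LX2 in 20 of 30 tested cases and fell in 2, while in HCCLM3 6 of 28 rose and 5 fell. Among the genes tested, that list shares AARS1, CARS1, GARS1, NARS1, PPP1R15A, HERPUD1, SLC38A1 and SLC6A15 with the other lists. GDF15, a secreted stress hormone, had 138 ± 1.88 FPKM in LX2 with HCCLM3 and 73.2 ± 0.73 FPKM in LX2 alone (log2 fold change 0.88; edgeR adjusted p = 4.03e-06). In HCCLM3 the same gene fell by 0.65 on the log2 scale, to a mean of 35.1 FPKM with LX2, against 49.1 FPKM alone (edgeR adjusted p = 0.00619; named for HCCLM3 after its value was seen). BCAT1, which transaminates branched-chain amino acids, rose by 0.66 in LX2. ADM2 rose (1.42) and the autophagy receptor gene SQSTM1 (-0.62) and the mitochondrial folate enzyme gene MTHFD1L (-0.69) fell in HCCLM3.

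Upstream, of the 12 genes of eIF2alpha, its kinases and its phosphatase, 3 rose and 3 fell in LX2 and 1 rose and 5 fell in HCCLM3. PPP1R15A (GADD34), the phosphatase subunit through which the response is turned off and itself an ATF4 target, rose in LX2 to 50.3 ± 0.50 FPKM with HCCLM3, against 23.8 ± 0.50 FPKM alone (log2 fold change 1.05). The interferon-induced kinase gene EIF2AK2 fell there by 0.74 on the log2 scale and GCN1, which activates GCN2, by 0.26. In HCCLM3 the leading changes were EIF2S1, which encodes eIF2alpha itself (-0.81), GCN1 (-0.59) and PPP1CB (-0.37). On library totals without TMM, 2 rose and 2 fell in HCCLM3, against 2977 and 1039 of all 18045 genes tested there.

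Of 21 genes of the XBP1 and ATF6 arms of the endoplasmic reticulum stress response, 6 rose and 2 fell in LX2 and 1 rose and 3 fell in HCCLM3. HSPA5, the chaperone BiP and the standard readout of those arms, fell in both lines: 223 ± 3.82 FPKM in LX2 with HCCLM3 and 276.5 ± 0.76 FPKM alone (log2 fold change -0.34), and 188 ± 6.11 FPKM in HCCLM3 with LX2 and 241 ± 5.64 FPKM alone (-0.53). ERN1, which encodes the sensor IRE1, rose in both (1.46 in LX2 and 0.55 in HCCLM3), CALR fell in LX2 (-0.32) and HSP90B1 fell in HCCLM3 (-0.49). The set of cytosolic folate enzymes, with the reduced folate carrier gene SLC19A1, had 2 up and 4 down of 11 in LX2 and 0 up and 4 down in HCCLM3. SLC19A1 (-0.87) and MTHFD1 (-0.29) fell in LX2, and FPGS (-0.68), SLC19A1 (-0.58) and MTHFD1 (-0.38) fell in HCCLM3.

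Further amino acid transporters were mixed, with 5 up and 6 down of 20 tested in LX2 and 2 up and 3 down of 20 tested in HCCLM3. SLC38A1 (0.26), SLC43A2 (1.39) and SLC36A4 (-0.42) led in LX2. In HCCLM3 the cationic carrier gene SLC7A2 fell to 0.589 ± 0.31 FPKM with LX2, against 2.22 ± 0.38 FPKM alone (log2 fold change -2.08), and the glutamate transporter genes SLC1A2 and SLC1A3 rose at levels of at most about 0.108 and 0.0743 FPKM on average. Of 21 genes of amino acid sensing by mTORC1, 5 rose and 5 fell in LX2 and 1 rose and 2 fell in HCCLM3, where both shares lie below those of all genes. The Rag GTPase genes RRAGA (-0.52) and RRAGB (-0.57) and the GATOR subunit gene WDR59 (-0.30) led in LX2, and RPTOR (-0.76), MIOS (-0.64) and RRAGB (0.45) in HCCLM3.

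**Figure D5:**
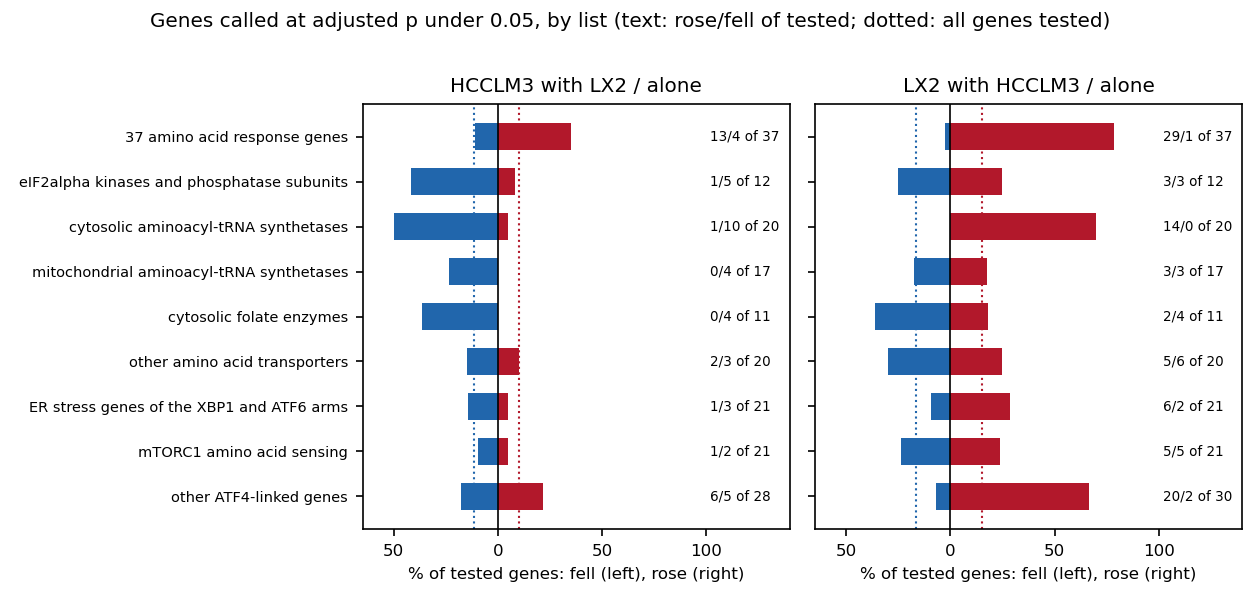
Share of tested genes that rose (red, to the right) or fell (blue, to the left) at an adjusted p under 0.05 in each list, in HCCLM3 with LX2 over alone (left) and LX2 with HCCLM3 over alone (right); dotted lines mark the share of all genes tested. The cytosolic synthetases stand at 14 up and 0 down of 20 in LX2 and at 1 up and 10 down in HCCLM3.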

How the data were processed

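Per the labels' protocols, libraries were made from polyadenylated RNA and read as pairs, although those protocols mention adipose tissue and their sequencer is not the one in the series text. Versions in the submitters' processing notes are Bowtie 0.12.2, HISAT2 2.0 and StringTie 1.3.0; the notes also list mm8 (mouse). The identifiers are human. GENCODE release 29 lists 58394 of the 60612 genes, 90.6% of them on the same chromosome with the same start or the same end. This held for 29 of the 37 members, and all 37 overlapped their place in that release. Coordinates were therefore read as GRCh38.

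Both deposited tables, 1 per line, hold the authors' raw counts per gene and their FPKM for each library, per the file headers. How FPKM was scaled is not stated. Before use, FPKM was set to zero where a gene had no count in a library. No measured column lacked a sample, and every pair of replicates differed by more than counting noise.

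Counts were tested with edgeR 4.0.16 (R 4.3.3): filterByExpr (minimum count 10, minimum total 15), TMM, quasi-likelihood test per line, and a fit over all 12 libraries for the difference between lines, with Benjamini-Hochberg adjustment over all genes tested, two-sided, at 0.05. Alternatives were DESeq2 1.42.0, library totals, no filter, limma 3.58.1 on log2(FPKM + 1) or log2(FPKM + 0.1), a replicate block and leaving out each library. The procedure was also run on simulated counts with known changes, and the outcome is not given here. Those counts were drawn independently for each library, so that run cannot address replicates that are not independent. Members, companion lists and markers were chosen with earlier results of these data known. Library values are given for members called with a log2 fold change of size 1 or more in a line, called in opposite directions, or with a difference at an adjusted p under 0.01; of each companion list, up to 3 genes with the smallest p per line are named, except 1 that is not reported here. ATF4, ASNS, PHGDH and SLC1A5 are given in addition.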

Additional observations from a re-analysis of the deposited data

Results flagged for a closer look

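By a test of the difference itself in a single edgeR fit over 12 libraries, the change differed between the lines for 22 of the 37 genes. Of all 21959 genes tested, 20.7% were called. Values are the log2 change in HCCLM3 minus that in LX2. Among transcription factors the difference was -1.48 for ATF3 and -0.60 for CEBPG. Among serine and one-carbon enzymes it was 0.62 for PHGDH, -0.53 for PSAT1, -0.69 for PSPH and -0.98 for CTH. Among the enzymes of proline and asparagine synthesis and their neighbours it was 2.39 for PYCR1, -0.28 for ALDH18A1 and -0.60 for PCK2. The transporters differed by -2.24 for SLC7A5, -1.38 for SLC3A2, -0.63 for SLC7A11, 0.96 for SLC38A2 and 0.37 for SLC6A9. The stress effectors differed by -1.19 for TRIB3, 1.10 for DDIT4, -0.61 for SESN2, 1.91 for NUPR1, -1.22 for STC2, -0.49 for VLDLR, -0.40 for XPOT and -0.65 for LONP1.

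Several of these calls were lost when single libraries were left out. ATF3 lost its call without 9 of 12 libraries taken singly (difference -1.57 to -1.19; edgeR adjusted p 0.0556 to 0.101), PCK2 without 10 (-0.65 to -0.49; 0.0532 to 0.104), PSPH and VLDLR without 6 each (-0.69 to -0.60; 0.0547 to 0.0676, and -0.49 to -0.45; 0.0509 to 0.0609) and SLC6A9 without 4 (0.34 to 0.36; 0.0529 to 0.0597). The libraries whose absence kept the call of ATF3 were HCCLM3 with LX2 replicate 2, LX2 alone replicate 1 and LX2 with HCCLM3 replicate 3, and for PCK2 they were HCCLM3 alone replicate 2 and LX2 alone replicate 3. On library totals without TMM, the differences of ATF3, PSPH, ALDH18A1, PCK2, VLDLR and XPOT were not called. Those of PYCR1, SLC6A9, ALDH18A1, PCK2, PSPH and VLDLR were not called with limma on log2(FPKM + 1), with or without the filter. Those of ATF3 and XPOT were not called with it when the filter was left out. The difference calls of SLC7A5, SLC3A2, NUPR1, DDIT4, STC2, TRIB3, CTH, LONP1, SLC7A11, SESN2, CEBPG, PSAT1, SLC38A2 and PHGDH held under every alternative run.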

How the results depend on the processing

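Under the 7 settings other than leaving out a library, calls of members were lost in 17 of 119 cases in HCCLM3, 2 of 210 in LX2 and 30 of 154 for the difference between the lines; the others kept direction and call, and no called value turned its direction. Turned directions were seen among genes not called. In HCCLM3 the log2 fold change on library totals without TMM was 0.172 for ATF3, 0.08 for SLC7A11, 0.167 for SLC1A5, 0.121 for STC2 and 0.140 for XPOT. With limma on log2(FPKM + 0.1) these were 0.0822, 0.0748, 0.168, 0.114 and 0.134, and on log2(FPKM + 1), with or without the filter, 0.0755, 0.0710, 0.167, 0.102 and 0.130. The difference of EIF4EBP1 was 0.147 on library totals, 0.141 with limma on log2(FPKM + 0.1) and 0.137 on log2(FPKM + 1), where that of MTHFD2 was -0.613, both with and without the filter. The cause was not tested.

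With single libraries left out, log2 fold changes in HCCLM3 ran from -0.278 to 0.284 for ATF3, -0.0854 to 0.476 for JDP2, -0.0104 to 0.170 for SHMT2, -0.149 to 0.200 for SLC1A5 and -0.0846 to 0.0151 for XPOT. In LX2 they ran from -0.0436 to 0.112 for JDP2, -0.220 to 0.0480 for CBS and -0.130 to 0.224 for PYCR1. The difference ran from -0.134 to 0.429 for JDP2, -0.0264 to 0.522 for ALDH1L2 and -0.0829 to 0.0312 for EIF4EBP1. Genes called in HCCLM3 numbered 1918 (without replicate 3 of HCCLM3 with LX2) to 2928, against 3924 with all libraries, and members called 10 to 14, against 17.

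Within each line, co-cultured and alone libraries of the same number had deviations from their group means that correlated at -0.041 to 0.045. The labels do not say whether co-cultured HCCLM3 and LX2 libraries of the same number came from the same device. That pairing was not examined, and the fit of the difference took all libraries as independent. With the number as a replicate block within each line, 16, 30 and 23 members were called in HCCLM3, in LX2 and for the difference, against 17, 30 and 22. CTH and PCK2 in HCCLM3 were not called under the block or without the filter, and SLC1A5 in HCCLM3 was at 0.00506 under the block. Depth limits MTHFD2, PYCR1 and ALDH1L2 in HCCLM3, which rest on 11 to 198 counts per library.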
